A study of Mus musculus with 50 samples.

Results

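The core genes of the circadian clock were read in RNA-seq libraries of liver and liver tumours of male C3H/He mice, a strain prone to liver tumours. They were the 10 rows, of 45792 in the count table, whose gene symbol was Arntl, Npas2, Clock, Nr1d1, Nr1d2, Dbp, Tef, Per1, Per2 or Per3, and each of the 10 symbols was found on a single row. The genes were chosen by their levels, group differences and correlations in an earlier look at the same counts, so these are given here as descriptions. Mice were fed a control diet or the ALIOS diet, a purified diet rich in trans-fat with fructose in the drinking water, and tissue was harvested at 48 weeks. The non-tumour livers were 12 on the control diet (N1 to N12, control livers) and 11 on the ALIOS diet (N13 to N23, ALIOS livers). The spontaneous tumours were 12 on the ALIOS diet (ALIOS tumours) and 1 on the control diet (T7). Tumours of mice that also received diethylnitrosamine (DEN), a liver carcinogen, were 8 on the ALIOS diet (ALIOS DEN tumours) and 5 on the control diet (control DEN tumours). Non-tumour livers of mice given DEN were not analysed here, so the tumour state and DEN cannot be told apart. The hour of collection, the DEN dose and which liver and tumour shared a mouse are not given in the sources used here. By the study's methods, mice were fasted overnight for a glucose tolerance test, and pilot mice were killed after the test at 48 weeks. Its values of this test at 48 weeks are given for the pilot and follow-up studies together. A footnote describes the cases used for RNA-seq, which match the non-tumour livers in number, as a subset of the follow-up study. The interval between test and killing, the study of the tumour mice and the feeding state at collection are not given there.

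Several libraries stood apart and are named wherever a result rests on them. The tumour library T1 was left out because it held kidney transcripts, with 1059419 counts of Kap, a gene of the kidney tubule, against at most 125 in any other library. Of the control livers, N11 and N12 were far from the other 10 in the clock genes, and of the ALIOS DEN tumours, T22 and T24 were far from the other 6. Total counts ran from 23798251 to 45751398 per library, and counts of the clock genes from 0 to 11103. The summed level of 6 hepatocyte markers (Alb, Apoa1, Ttr, Cps1, Ass1 and Cyp2e1) lay between 73070 and 222813 CPM in the 49 libraries used. Summed markers of endothelial cells lay between 58.7 and 205 CPM and those of T cells between 0.726 and 8.82 CPM, and kidney markers reached at most 5.64 CPM. The summed pancreatic acinar markers lay between 11.97 and 190 CPM, but nearly all of this was Cela1. The acinar markers Cpa1 and Cel reached at most 0.104 and 0.0751 CPM. CPM is a gene's count scaled to the total of its library, adjusted by the TMM method of edgeR, and levels are in CPM unless a sentence names another scale. In whole tissue, fewer cells of a type and less RNA per cell cannot be told apart.

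The liver clock is a feedback loop of transcription factors. BMAL1, the product of Arntl, pairs with CLOCK or with its relative NPAS2, binds E-box motifs and activates the Period and Cryptochrome genes, the REV-ERB genes Nr1d1 and Nr1d2, and the genes of the D-box factors DBP and TEF. Period proteins repress the activator pair, and the REV-ERB proteins repress Arntl, Npas2 and Clock through ROR response elements. In mouse liver the activator transcripts peak late in the night or around dawn and are called morning genes here, while those of the other 7 genes peak later in the day or around dusk and are called evening genes. In a running clock the sets are therefore high at different hours in the same organ, and much Arntl with little Dbp marks another phase than the reverse.

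The letters of the loop can be read in the members' own promoters. RefSeq promoter windows on GRCm38.p6 were found for 9 of the 10 genes, and 14 windows of 300 bases (250 before and 50 after the start) were searched on both strands. The 250 bases before the start are printed 5′ to 3′ on the strand of the gene for 5 windows that show an E-box, an E-box variant, D-boxes or none of these. Capitals mark matches to the motifs searched.
Per1, chr11:69098699-69098948, plus strand: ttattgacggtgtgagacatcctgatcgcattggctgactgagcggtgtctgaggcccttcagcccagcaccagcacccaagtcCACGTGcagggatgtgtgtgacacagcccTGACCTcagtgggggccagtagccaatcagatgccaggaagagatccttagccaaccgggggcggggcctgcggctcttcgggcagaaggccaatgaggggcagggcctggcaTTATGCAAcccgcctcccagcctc
Tef, chr15:81811164-81811413, plus strand: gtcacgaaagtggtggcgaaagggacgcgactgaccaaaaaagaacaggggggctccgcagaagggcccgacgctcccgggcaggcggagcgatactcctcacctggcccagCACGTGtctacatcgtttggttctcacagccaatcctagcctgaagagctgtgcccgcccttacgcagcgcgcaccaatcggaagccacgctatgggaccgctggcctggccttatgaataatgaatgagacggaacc
Nr1d1, chr11:98775378-98775627, minus strand: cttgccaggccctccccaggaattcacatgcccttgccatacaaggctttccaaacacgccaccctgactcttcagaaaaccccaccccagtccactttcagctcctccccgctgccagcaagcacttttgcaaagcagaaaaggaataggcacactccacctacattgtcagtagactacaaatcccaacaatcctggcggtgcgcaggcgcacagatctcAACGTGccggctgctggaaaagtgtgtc
Per3, chr4:151044666-151044915, minus strand: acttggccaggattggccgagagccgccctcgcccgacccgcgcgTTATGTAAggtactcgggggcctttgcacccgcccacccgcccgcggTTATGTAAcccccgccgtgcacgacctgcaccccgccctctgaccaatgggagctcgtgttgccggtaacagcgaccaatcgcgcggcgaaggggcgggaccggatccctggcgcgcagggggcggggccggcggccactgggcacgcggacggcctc
Arntl, chr7:113207215-113207464, plus strand: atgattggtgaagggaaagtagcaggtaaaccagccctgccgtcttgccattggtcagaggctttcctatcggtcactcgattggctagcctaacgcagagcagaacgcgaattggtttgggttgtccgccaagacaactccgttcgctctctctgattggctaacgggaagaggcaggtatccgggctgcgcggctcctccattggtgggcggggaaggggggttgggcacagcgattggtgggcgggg
The E-box CACGTG lay 166 bases before the start of Per1 and 138 before this start of Tef, and a further Tef window held it 127 bases before its start. It was found in 7.15% of 32851 promoter windows of the same length. The variant CACGTT lay 28 bases before the start of Nr1d1 on the opposite strand, and 4.68% of windows held it. The D-box TTATGTAA was found in Per3 only among the members, at 205 and 158 bases before the start, and in 0.938% of windows. The D-box form TTATGCAA lay 24 bases before the start of Per1 and in 0.743% of windows. The core of the ROR element, AGGTCA, was found in 16.3% of windows, among them windows of Per1, Nr1d2 (77 bases before the start), Clock (119 bases before) and Arntl (32 bases after the start of a further window). The forms GGGTCA (13.7% of windows), TTACGTAA (0.119%) and the cAMP response element TGACGTCA (1.79%) had no match in the members' windows. A match describes the letters of the window and is not a binding site.

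Among the morning genes, Arntl (ENSMUSG00000055116.7, chromosome 7, 113207465 to 113314126, plus strand of GRCm38) codes for the partner that both CLOCK and NPAS2 need. Its level in the control livers was 0.800 CPM at the lowest, 1.48 at the median and 23.1 at the highest, with a mean of 4.81 ± 8.10 (SD, n = 12). The 10 control livers other than N11 and N12 lay between 0.800 and 2.17 CPM, whereas N11 had 21.1 and N12 had 23.1. The high control livers were these alone, with no library between them and the rest. In the ALIOS livers the level ran from 1.09 over a median of 1.86 to 2.68 CPM (1.85 ± 0.581, SD, n = 11), and in the ALIOS tumours from 1.05 over 2.16 to 10.1 CPM (2.77 ± 2.43, SD, n = 12). The highest ALIOS tumour was T4, and the next, T9, had 3.73 CPM. The 5 control DEN tumours had 1.22, 0.830, 0.583, 0.636 and 2.45 CPM (T17 to T21 in order, 1.14 ± 0.774, SD). Their values overlapped those of the 10 low control livers. The 8 ALIOS DEN tumours had 0.923 (T24), 1.496 (T22), 11.2 (T15), 11.2 (T26), 14.01 (T25), 22.3 (T23), 24.3 (T16) and 32.3 CPM (T27), a range of 35-fold, with a mean of 14.72 ± 11.01 (SD). Thus 6 of them were above every ALIOS liver, every ALIOS tumour and every control DEN tumour, and T24 and T22 were inside those ranges or below them. The single control tumour T7 had 24.1 CPM. By the median the groups ran from the ALIOS DEN tumours (12.6 CPM) over the ALIOS tumours, the ALIOS livers and the control livers to the control DEN tumours (0.830 CPM), and each group overlapped its neighbours in this order.

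Npas2 (ENSMUSG00000026077.13, chromosome 1, 39193731 to 39363236, plus strand), the relative of Clock, was nearly silent in most livers. The control livers other than N11 and N12 held between 0.0572 and 0.232 CPM, N11 had 4.81 and N12 had 5.28. The ALIOS livers ran from 0 CPM, in N13, N15 and N16, over a median of 0.182 to 0.605 CPM (0.190 ± 0.196, SD, n = 11). These levels stand for a median of 4 counts in the 10 control livers and 5 counts in the ALIOS livers. Small differences among them therefore cannot be told from counting error at this depth. The ALIOS livers ran from 0 counts to 13 in N21 and 16 in N22. In the ALIOS tumours the level was 0.158 at the lowest, 0.514 at the median and 3.62 CPM (T4) at the highest. In T17 to T21, the control DEN tumours, Npas2 had 0.165, 0.178, 0.130, 0.333 and 0.250 CPM. The ALIOS DEN tumours had 0.586 (T24), 0.671 (T22), 3.63 (T15), 3.70 (T26), 7.46 (T25), 14.8 (T23), 6.15 (T16) and 18.5 CPM (T27), and T7 had 9.01 CPM. All 8 ALIOS DEN tumours were above all 5 control DEN tumours, and 0.581% of all genes did not overlap between these groups. The control DEN tumours had only 4 to 11 counts of Npas2, so its lack of overlap carries no weight. The same libraries that were high in Arntl were high in Npas2.

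Clock (ENSMUSG00000029238.9, chromosome 5, 76209868 to 76304792, minus strand), the more abundant partner of BMAL1 in liver, spanned a narrower range. The control livers other than N11 and N12 lay between 19.01 and 32.6 CPM, with N11 at 59.3 and N12 at 73.4. The ALIOS livers lay between 17.5 and 29.0 CPM (22.7 ± 3.52, SD, n = 11), and the ALIOS tumours between 14.2 and 49.2 CPM (27.2 ± 10.7, SD, n = 12) with T4 the highest. The control DEN tumours T17 to T21 had 21.3, 23.6, 13.8, 13.1 and 28.9 CPM. The ALIOS DEN tumours, in the order T24, T22, T15, T26, T25, T23, T16 and T27 used above, had 12.99, 24.4, 49.97, 48.0, 32.4, 42.7, 62.6 and 70.5 CPM, and T7 had 53.5 CPM. The range of the ALIOS DEN tumours overlapped that of each other group, with 6 of 8 above every ALIOS liver and every control DEN tumour and 3 above every ALIOS tumour. Every ALIOS liver was exceeded in all 3 morning genes by N11, N12, T7, the ALIOS tumours T4, T9 and T12, and the 6 ALIOS DEN tumours other than T24 and T22.

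**Figure D1:**
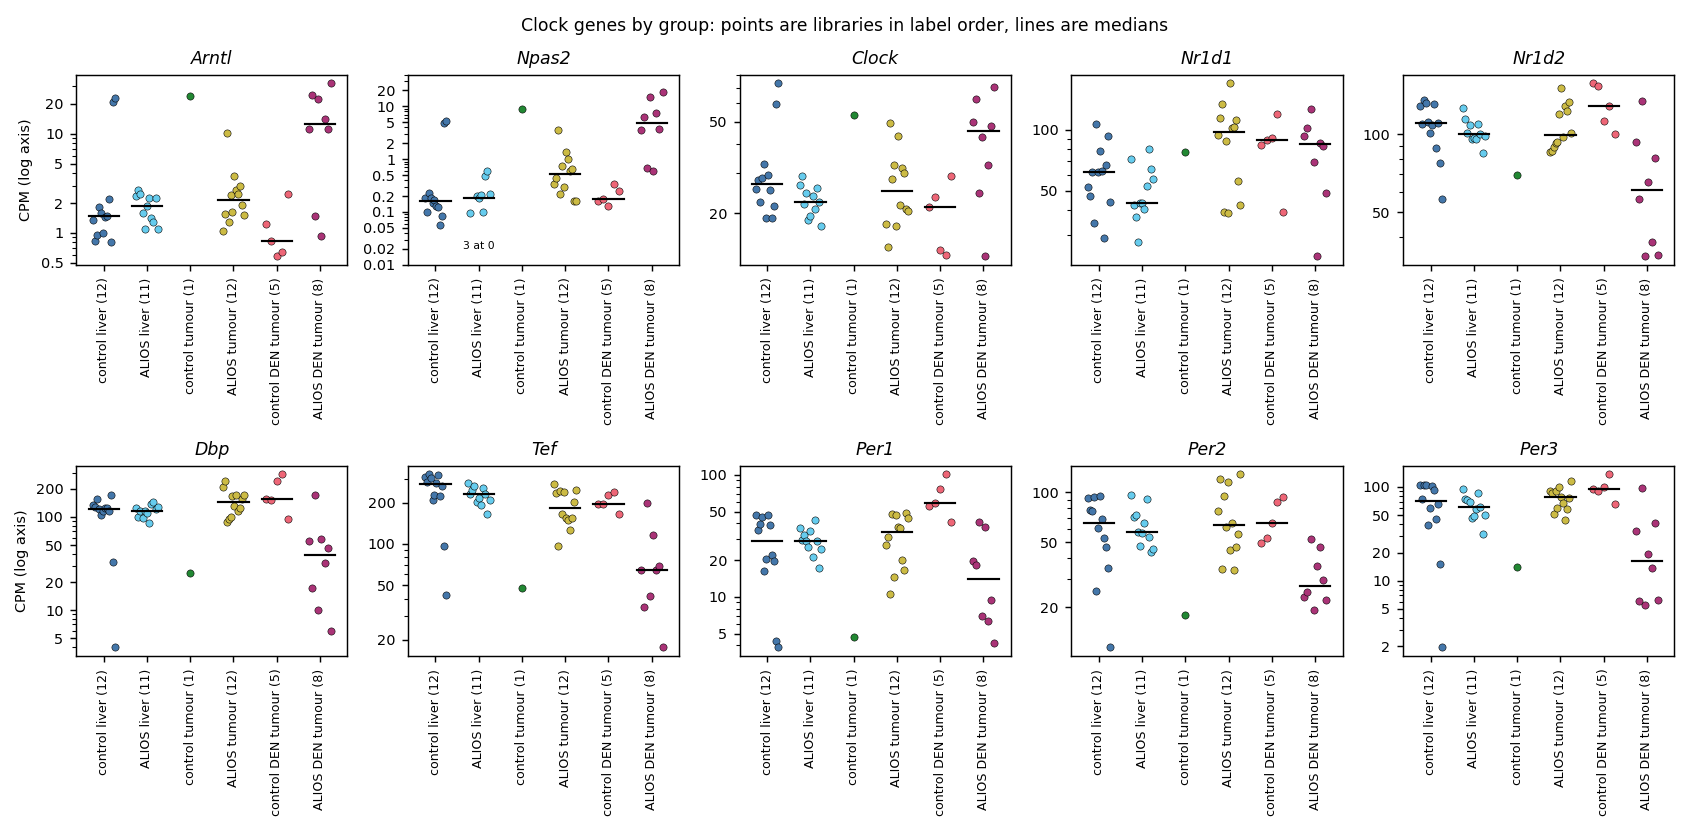
Level of each of the 10 clock genes (CPM, log axis) in every library, by group, with the number of libraries in brackets; points are libraries and lines are group medians. The 2 control livers far above the rest in Arntl (21.1 and 23.1 CPM) are N11 and N12, and 6 of 8 ALIOS DEN tumours lie at 11.2 CPM or above; ALIOS livers with no count of Npas2 are given as text.

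Among the evening genes, Nr1d1 and Nr1d2 code for the REV-ERB repressors. Nr1d1 (ENSMUSG00000020889.11, chromosome 11, 98767932 to 98775333, minus strand) had 29.1, 61.8 and 107 CPM in the control livers (lowest, median and highest), with N11 at 93.5 and N12 at 44.0, inside the range of the other 10. It had 27.9, 43.6 and 80.1 CPM in the ALIOS livers and 38.9, 97.7 and 170 CPM in the ALIOS tumours. The highest ALIOS tumours in Nr1d1 were T9 (170 CPM) and T4 (134 CPM), which were also the highest in Arntl. The control DEN tumours T17 to T21 had 83.7, 88.6, 91.0, 120.2 and 39.3 CPM. The ALIOS DEN tumours had 23.7 (T24), 127 (T22), 92.7 (T15), 83.5 (T26), 85.9 (T25), 69.4 (T23), 102 (T16) and 48.6 CPM (T27), and T7 had 77.8 CPM. In N11, N12, T4, T7 and the 6 ALIOS DEN tumours with much Arntl, Nr1d1 lay between 44.0 and 134 CPM, inside the range of the other libraries. The last 1075 bases of its locus overlap Thra on the opposite strand, and the strand setting of the counting is not stated.

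Nr1d2 (ENSMUSG00000021775.10, chromosome 14, 18204054 to 18239127, minus strand), the paralog of Nr1d1, had 56.2, 110.0 and 136 CPM in the control livers, and the lowest values there were those of N12 (56.2) and N11 (77.3). The ALIOS livers lay between 84.2 and 126 CPM (103 ± 11.3, SD, n = 11) and the ALIOS tumours between 85.1 and 150.0 CPM (108 ± 21.6, SD, n = 12). In T17 to T21, the control DEN tumours, Nr1d2 had 157, 153, 113, 128 and 99.7 CPM. In the ALIOS DEN tumours the values were 65.0 (T24), 134 (T22), 93.1 (T15), 80.6 (T26), 38.4 (T25), 33.8 (T23), 56.2 (T16) and 34.2 CPM (T27), and T7 had 69.5 CPM. Of the 8, 7 lay below every control DEN tumour, and T22 did not.

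Dbp (ENSMUSG00000059824.8, chromosome 7, 45705088 to 45710203, plus strand) codes for a D-box activator whose liver transcript is among the most strongly rhythmic. The control livers other than N11 and N12 lay between 106 and 171 CPM with a median of 125, whereas N11 had 32.9 and N12 had 3.97. The ALIOS livers lay between 85.3 and 144 CPM (117 ± 17.5, SD, n = 11) and the ALIOS tumours between 87.3 (T4) and 246 CPM (148 ± 48.1, SD, n = 12). Low values thus marked N11 and N12 among the livers, and T4 was the lowest spontaneous tumour on the ALIOS diet. The control DEN tumours T17 to T21 had 157, 152, 246, 286 and 94.4 CPM. The ALIOS DEN tumours had 58.7 (T24), 171 (T22), 55.8 (T15), 46.9 (T26), 32.2 (T25), 9.93 (T23), 17.1 (T16) and 6.01 CPM (T27), and T7 had 25.1 CPM. All of these but T22 were below every control DEN tumour and every ALIOS liver. The ratio of Arntl to Dbp on the log2 scale, which does not depend on library size, was above 0 in N12 (2.52) and in the ALIOS DEN tumours T16, T23 and T27 (up to 2.42), and it was -0.06 in T7. Its median was -6.35 in the control livers, -5.86 in the ALIOS livers, -6.06 in the ALIOS tumours, -7.41 in the control DEN tumours and -1.63 in the ALIOS DEN tumours. The last 737 bases of Dbp overlap Sphk2 on the opposite strand.

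Tef (ENSMUSG00000022389.12, chromosome 15, 81802421 to 81826863, plus strand), codes for a further D-box activator. The control livers other than N11 and N12 lay between 209 and 321 CPM, with N11 at 97.1 and N12 at 42.1. The ALIOS livers lay between 164 and 280 CPM (227 ± 34.1, SD, n = 11), and the ALIOS tumours between 96.1 (T4) and 276 CPM (191 ± 56.7, SD, n = 12). Tef in T17 to T21, the control DEN tumours, was 197, 196, 227, 238 and 167 CPM. In the ALIOS DEN tumours Tef had 115 (T24), 199 (T22), 64.7 (T15), 69.6 (T26), 64.4 (T25), 41.8 (T23), 34.6 (T16) and 17.6 CPM (T27), and T7 had 48.1 CPM. T22 was again the only ALIOS DEN tumour inside the range of the control DEN tumours.

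The Period genes code for the repressors of the loop. Per1 (ENSMUSG00000020893.15, chromosome 11, 69095217 to 69109960, plus strand) had 16.4 to 47.2 CPM in the 10 control livers, 4.37 in N11 and 3.85 in N12. Its ALIOS livers lay between 17.2 and 42.3 CPM and its ALIOS tumours between 10.6 (T4) and 48.3 CPM. The control DEN tumours T17 to T21 had 55.8, 58.6, 76.6, 101 and 40.8 CPM, and 4 of these 5 were above every control liver. The ALIOS DEN tumours had 37.2 (T24), 41.4 (T22), 19.8 (T15), 9.45 (T26), 6.34 (T25), 6.92 (T23), 18.4 (T16) and 4.17 CPM (T27), and T7 had 4.69 CPM.

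Per2 (ENSMUSG00000055866.9, chromosome 1, 91415982 to 91459324, minus strand) had 25.2 to 94.7 CPM in the 10 control livers, 34.98 in N11 and 11.4 in N12, so that N12 alone was outside. The ALIOS livers lay between 43.6 and 96.4 CPM and the ALIOS tumours between 33.7 and 129 CPM. In the control DEN tumours T17 to T21 the levels were 49.3, 53.1, 65.1, 87.7 and 94.5 CPM. Levels in the ALIOS DEN tumours were 35.6 (T24), 52.4 (T22), 23.3 (T15), 29.4 (T26), 46.9 (T25), 19.3 (T23), 24.7 (T16) and 22.3 CPM (T27), and T7 had 18.1 CPM. Of the ALIOS DEN tumours, 7 lay below every control DEN tumour, and T22 did not.

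Per3 (ENSMUSG00000028957.10, chromosome 4, 151003652 to 151044665, minus strand) spanned 1.95 to 136 CPM over the 49 libraries. It had 38.9 to 106 CPM in the 10 control livers, 15.1 in N11 and 1.95 in N12. The ALIOS livers lay between 31.7 and 94.2 CPM and the ALIOS tumours between 44.0 and 114 CPM. Per3 in T17 to T21, the control DEN tumours, was 94.1, 91.0, 99.9, 136 and 66.2 CPM. Levels in the ALIOS DEN tumours were 19.2 (T24), 97.5 (T22), 34.1 (T15), 40.8 (T26), 13.6 (T25), 5.53 (T23), 6.08 (T16) and 6.20 CPM (T27), and T7 had 13.9 CPM. T24 was thus low in Per3 and in Arntl alike. Per3 lies inside Camta1, on the same strand.

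Per length of exon, the group medians of the evening genes stood above those of the morning genes in the livers. In CPM per kb of exon, the medians of the control livers ran from Dbp (40.96) and Tef (34.5) over Nr1d2 (20.3), Nr1d1 (20.1), Per2 (11.1), Per3 (7.33), Per1 (5.10) and Clock (1.95) to Arntl (0.196) and Npas2 (0.0332). The ALIOS livers had the same order, from 38.8 for Dbp to 0.0380 for Npas2. N11 and N12 did not keep this order. In N12, Clock (5.35) and Arntl (3.07) were above Dbp (1.33), Per1 (0.684) and Per3 (0.203), and in N11 Clock was above Per1 and Per3. In the ALIOS DEN tumours Nr1d1 came first with a median of 27.5 CPM per kb, ahead of Dbp (13.2) and Nr1d2 (11.2), and Arntl (1.68) was close to Per3 (1.70). In T7 the levels per kb were 25.3 for Nr1d1, 8.40 for Dbp, 3.90 for Clock, 3.20 for Arntl and 0.833 for Per1, which was the lowest of the 10.

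**Figure D2:**
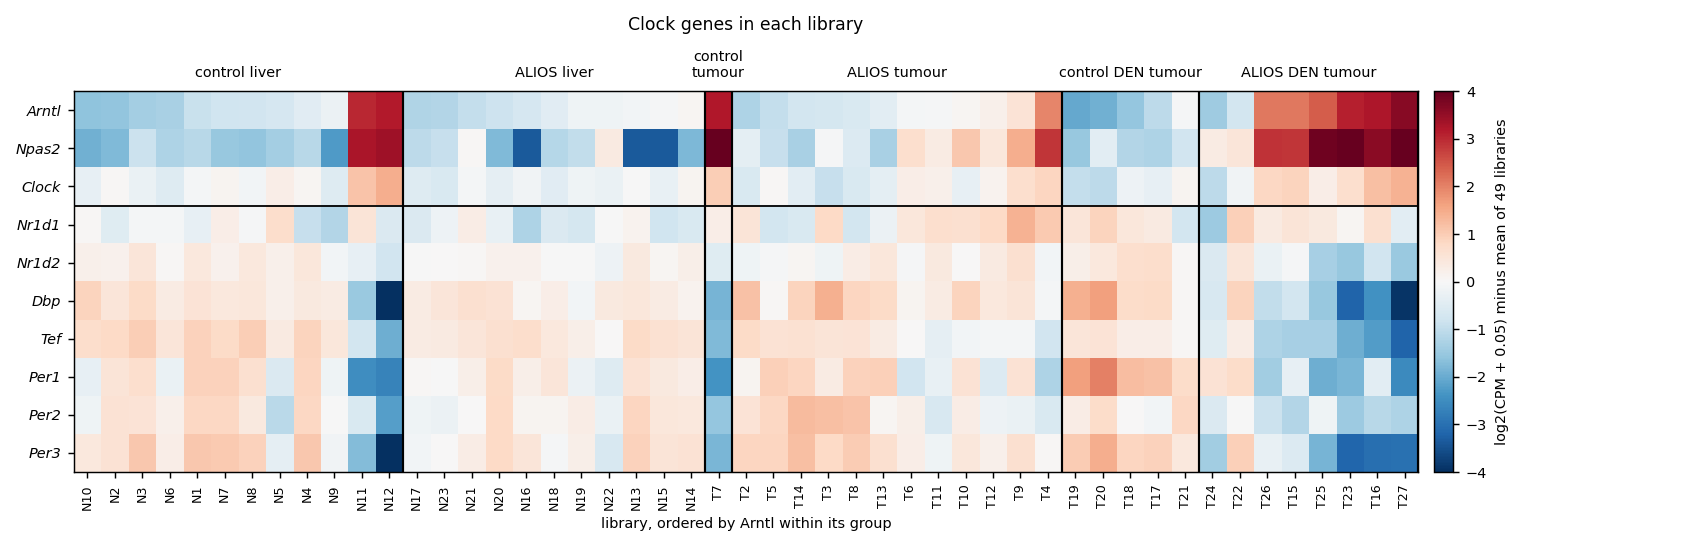
Level of each clock gene in the 49 libraries as log2(CPM + 0.05) minus the mean over all of them, with libraries ordered by Arntl within each group and the horizontal line separating morning from evening genes; the colour ends at 4 in either direction. N11, N12, T7 and 6 ALIOS DEN tumours are red above the line and mostly blue below it, and T24 is pale or blue in most genes on either side of it.

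N11 and N12 differed from the other control livers in much of the clock. Both were outside the range of the other 10 on the same side for 8 of the 10 members, above it for Arntl, Npas2 and Clock and below it for Nr1d2, Dbp, Tef, Per1 and Per3. The same held for 8.31% of the 17728 genes that passed the filter on low counts. In a list of 26 further clock genes and rhythmic liver transcripts it held for 12 (46.2%). Nfil3, a D-box repressor, had 36.9 and 53.2 CPM in N11 and N12 against 8.88 to 24.02 CPM in the others. Elovl3, a fatty acid elongase with a strong daily rhythm in mouse liver, had 597 and 576 CPM against 22.3 to 57.8. Below the others were the repressor Ciart, with 1.23 and 0.119 CPM against 8.87 to 33.7, and the deubiquitinase Usp2, with 1.30 and 0.993 CPM against 16 to 38.1. In a list of 14 genes that follow glucocorticoids, fasting or feeding, 3 lay outside on the same side (21.4%). Pdk4, which spares glucose in fasting, had 27.4 and 12.2 CPM against 1.92 to 6.46, and the fasting hormone Fgf21 had 25.1 and 53.3 CPM against 1.87 to 14.1. Tsc22d3, which glucocorticoids induce, was below the others, with 56.6 and 34.9 CPM against 61.6 to 102. The summed hepatocyte markers of N11 (100999 CPM) and N12 (124991 CPM) were inside the range of the other control livers. Their summed level of 5 stellate cell and fibroblast markers was 213 and 229 CPM, of which Dcn made 189.96 and 193 CPM. The other 10 ran from 102 (N9) to 219 CPM (N5) in this sum, so N11 was inside their range and N12 above it. Whether hour, food or tissue makeup has a part in the levels of N11 and N12 was not tested.

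Diet was compared first in the non-tumour livers. No member differed between ALIOS and control livers by edgeR's quasi-likelihood test at a Benjamini-Hochberg adjusted p under 0.05, with 0 of the 9 members tested called, against 11.2% of 13723 genes. Npas2 was removed by the filter. At an unadjusted p under 0.05 the count was 2 of 9, and DESeq2 also called 0. The fitted log2 difference of ALIOS minus control was -1.38 ± 0.58 (SE) for Arntl and -0.51 ± 0.19 for Clock, and it lay between -0.29 and 0.04 for the 7 evening genes. DESeq2 gave 0.40 for Arntl. These values for the morning genes rested on N11 and N12. Without them, an alternative chosen after the data were seen, the difference was 0.44 ± 0.20 for Arntl, with the sign turned, and -0.17 ± 0.10 for Clock, and 0 of 9 members were called by edgeR, against 8.2% of 13799 genes, with 3 at an unadjusted p under 0.05 and 1 called lower by DESeq2. Of the 24 further clock genes tested, Elovl3 alone was called, lower by 2.21 ± 0.61 on the log2 scale in the ALIOS livers (edgeR adjusted p = 0.0221). Without N11 and N12 it was -0.52 ± 0.29 (edgeR adjusted p = 0.247), and 0 of 24 were called by edgeR, 2 at an unadjusted p, and 1 by DESeq2. None of 6 glucocorticoid genes and 8 fasting and feeding genes was called in the full fit, 0 of them also at an unadjusted p and by DESeq2. Without N11 and N12, Pdk4 was higher in the ALIOS livers by 1.56 ± 0.33 (edgeR adjusted p = 0.0110), where the full fit gave 0.72 ± 0.44 (edgeR adjusted p = 0.284).

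The spontaneous tumours on the ALIOS diet were compared with the ALIOS livers. Nr1d1 was higher in the tumours by 0.85 ± 0.24 (SE) on the log2 scale, and 8 of 12 tumours were above all 11 livers. It was the only member called by edgeR, 1 of 9 tested against 52.8% of 14183 genes, and DESeq2 called 2. The other 8 members lay between -0.24 (Tef) and 0.59 (Arntl), and Dbp (0.35 ± 0.15) was called as well on leaving out any 1 of 5 livers or 6 tumours. In the wider clock list 3 of 24 were higher and 11 lower, a share near that of all genes called, of which 3812 were higher and 3675 lower. Among the higher were the kinase gene Csnk1e (0.96 ± 0.13, edgeR adjusted p = 3.95e-06) and Timeless, which acts at the replication fork (0.91 ± 0.20, edgeR adjusted p = 0.000462). The lower genes included rhythmic outputs: Nampt, the NAD salvage enzyme, fell by 0.99 ± 0.13 (edgeR adjusted p = 1.92e-06), Alas1, the first enzyme of haem synthesis, by 1.66 ± 0.26 (1.86e-05), Usp2 by 1.57 ± 0.41 (0.00271), and Elovl3 fell by 3.45 ± 0.72 (0.000335). The D-box factors Hlf, an activator, and Nfil3, a repressor, fell by 0.61 ± 0.14 (edgeR adjusted p = 0.000714) and 1.07 ± 0.19 (7.21e-05). Over all genes tested the median log2 difference was 0.01, and over the wider list it was -0.27. Of the 6 hepatocyte markers, Alb (0.79 ± 0.20) and Apoa1 (0.61 ± 0.19) were higher in these tumours, and they carried a sum with a median of 172172 CPM against 104661 CPM in the ALIOS livers. The other 4 were lower, Ttr at -0.47 ± 0.16, Cps1 at -1.33 ± 0.17, Ass1 at -1.74 ± 0.23 and Cyp2e1 at -2.97 ± 0.70. Of the 5 macrophage markers 4 were lower, and their sum had a median of 121 CPM against 271. The part of tissue makeup in these differences was not tested.

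DEN tumours on the ALIOS diet had high morning genes and low evening genes beside the ALIOS livers. On the log2 scale Arntl was higher by 3.05 ± 0.47 (SE), Npas2 by 5.24 ± 0.72 and Clock by 0.98 ± 0.22. Tef was lower, at -1.52 ± 0.32, as were Dbp (-1.17 ± 0.43), Per2 (-0.95 ± 0.20) and Nr1d2 (-0.56 ± 0.22). Nr1d1 was higher by 0.69 ± 0.25, against the direction of the other evening genes. Of the 10 members 8 were called by edgeR, against 47.5% of 14434 genes. Npas2, one of the 8, had 0 to 16 counts in the ALIOS livers and passed the filter on low counts through the tumours where it was high, so its size and call carry no weight, here and in the comparisons that follow. Per1 (-0.64 ± 0.35) and Per3 (-1.11 ± 0.46) were not called by edgeR, whereas DESeq2 called Per3 (-1.15). On leaving out 1 tumour at a time, Arntl, Clock, Tef and Per2 were called each time. Dbp was not called without T16 (-1.05) or T25 (-1.12), Nr1d1 not without T15, T16 or T22 (0.56), and Nr1d2 not without T16, T23, T24, T25 or T27 (-0.46), whereas Per1 (-0.95) and Per3 (-1.75) were called without T22, Per1 also without T24 and Per3 also without T26. Groups overlapped for every member: Arntl was above all 11 livers in 6 of 8 tumours, Npas2 in 7 and Clock in 6, while Dbp and Tef were below all livers in 7, Per2 in 6 and Per3 in 5. The wider list had 4 of 25 genes higher and 9 lower. Arntl2, the paralog of Arntl, had 0 to 4 counts in the ALIOS livers and 0.386 to 6.32 CPM in these tumours, and no fold is given since it passed the filter through the tumours. Ciart fell by 1.60 ± 0.59 (edgeR adjusted p = 0.0308), Cry2 by 0.81 ± 0.16 (0.000505), and Wee1, a mitotic kinase under clock control, by 1.66 ± 0.35 (0.000736). Nampt fell by 1.38 ± 0.12 (edgeR adjusted p = 5.31e-08), Alas1 by 2.03 ± 0.31 (3.5e-05) and Usp2 by 2.53 ± 0.67 (0.00458).

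DEN tumours on the control diet were compared with the control livers. Per1 was higher in the tumours by 1.27 ± 0.43 (SE) on the log2 scale, the only member called of 9 tested, against 51.7% of 14731 genes. Without T20 it was 1.03 and not called, and without T21 Nr1d1 was called too, at 0.66. Arntl was -2.01 ± 0.94 and Clock -0.62 ± 0.31. Again N11 and N12 carried the values of the morning genes, and without them Arntl was -0.18 ± 0.33. In that fit 3 of 9 members were called, against 50.1% of 14656 genes: Per1 at 1.04 ± 0.26, Dbp at 0.57 ± 0.19 and Tef at -0.38 ± 0.13. Of the 25 wider genes tested 8 were higher and 6 lower, or 7 and 9 without N11 and N12. Arntl2 had 0 to 0.349 CPM in the control livers and 0.301 to 4.81 CPM in these tumours, so the groups overlapped. Timeless was higher by 1.84 ± 0.20 (edgeR adjusted p = 3.16e-07). Alas1 fell by 1.82 ± 0.50 (edgeR adjusted p = 0.0050) and Elovl3 fell by 5.58 ± 1.34 (edgeR adjusted p = 0.00179), where the fit without N11 and N12 gave -3.88 ± 0.80.

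**Figure D3:**
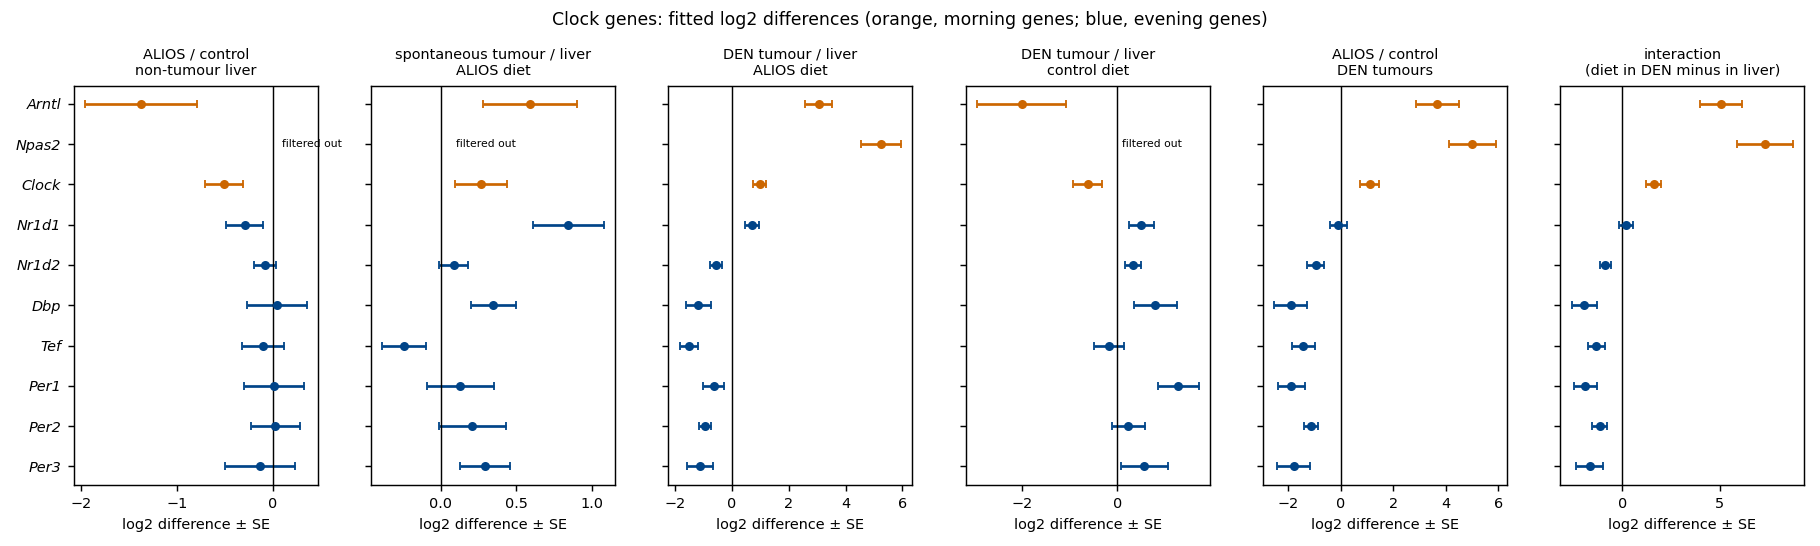
Fitted log2 difference with its SE for each clock gene in 6 comparisons, with morning genes in orange and evening genes in blue; Npas2 was filtered out of 3 of them. Morning genes lie right of 0 and most evening genes left of it in the ALIOS DEN tumours against ALIOS livers (Arntl 3.05, Tef -1.52) and against control DEN tumours (Arntl 3.68, Dbp -1.91).

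Diet was compared next within the DEN tumours. ALIOS minus control was 3.68 ± 0.81 (SE, log2 scale) for Arntl, 5.01 ± 0.90 for Npas2 and 1.10 ± 0.36 for Clock. It was -1.91 ± 0.63 for Dbp, -1.88 ± 0.50 for Per1, -1.80 ± 0.62 for Per3, -1.43 ± 0.43 for Tef, -1.13 ± 0.25 for Per2, -0.95 ± 0.31 for Nr1d2 and -0.09 ± 0.33 for Nr1d1. edgeR called 0 of these 10 members and 0.0134% of 14944 genes. At an unadjusted p under 0.05 there were 9 members of 10 and 1273 genes in all, and DESeq2 called 4 members and 155 genes. Without T22, or without T24, edgeR called Npas2 (5.19 in each). Npas2 alone did not overlap between the groups, which 0.581% of all genes did not. It had 4 to 11 counts in the control DEN tumours and passed the filter through the ALIOS DEN tumours. Its call and its lack of overlap therefore carry no weight. Arntl was above every control DEN tumour in 6 of 8, and Nr1d2, Dbp, Tef, Per1, Per2 and Per3 were below every control DEN tumour in 7 of 8. The exceptions were T22 and T24 for Arntl and T22 for the evening genes. Of the 25 wider genes edgeR called 0, with 11 at an unadjusted p and 1 by DESeq2. Elovl3 had 269 (T23), 272 (T25), 12.6 (T26), 6.41 (T15), 4.77 (T22), 1.51 (T27), 0.892 (T16) and 0.0355 CPM (T24) in the ALIOS DEN tumours and 0.0297 to 10.8 CPM in the control DEN tumours, so its high values did not follow those of Arntl.

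DEN tumours on the ALIOS diet were also compared with the spontaneous tumours of that diet. The log2 difference was 2.40 ± 0.52 (SE) for Arntl, 3.10 ± 0.63 for Npas2, 0.66 ± 0.27 for Clock, -1.58 ± 0.45 for Dbp, -1.46 ± 0.45 for Per3 and -0.21 ± 0.30 for Nr1d1. This comparison shares the 8 ALIOS DEN tumours with that of diet, so the values are given side by side only. edgeR called 0 of 10 members and 0% of 14845 genes, with 8 members and 1079 genes at an unadjusted p under 0.05, and DESeq2 called 5 members and 75 genes. Without T22, edgeR called Arntl (2.58), Npas2 (3.28), Dbp (-2.20), Tef (-1.71) and Per3 (-2.10). Among the 25 wider genes 0 were called by edgeR and DESeq2, and 7 had an unadjusted p under 0.05. Summed proliferation markers (Mki67, Top2a and Ccnb1) lay between 8.46 and 102 CPM in the ALIOS DEN tumours, 7.32 and 54.3 CPM in the ALIOS tumours (T4 the highest) and 14.7 and 28.1 CPM in the control DEN tumours. Their part in the clock levels was not tested.

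The effect of diet in the DEN tumours was then set against its effect in the non-tumour livers with an interaction term. The difference between the effects was 5.06 ± 1.08 (SE, log2 scale) for Arntl and 1.61 ± 0.39 for Clock. Of the 10 members edgeR called these and Npas2, which rested on the few counts of the other groups, 3 in all against 2.27% of 15606 genes, and DESeq2 called 5. The evening genes lay between -1.96 ± 0.65 (Dbp) and 0.19 ± 0.38 (Nr1d1). Without N11 and N12 the values of Arntl and Clock were 3.23 ± 0.66 and 1.26 ± 0.32, each still called, against 1.32% of 15588 genes. In the wider list Elovl3 (6.93 ± 1.75, edgeR adjusted p = 0.0295) and the repressor Bhlhe40 (-1.27 ± 0.35, edgeR adjusted p = 0.0426) were called of 25. Without N11 and N12 their edgeR adjusted p-values were 0.0657 and 0.0533, and 0 of 25 were called by edgeR, 10 had an unadjusted p under 0.05, and DESeq2 called 2. Of the 14 glucocorticoid, fasting and feeding genes 0 were called in the interaction by edgeR or DESeq2, with 1 at an unadjusted p.

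Since the hour of collection is not stated, the morning and evening genes were also set against each other inside each group. Pearson r and Spearman rho of log2 CPM were computed for the 21 pairs of a morning and an evening gene in the 4 groups with at least 6 libraries, 84 relations in all. Each p comes from a 2-sided permutation test (100000 resamples, or exact with fewer than 10 libraries) and was adjusted over the 84. The relations were part of what drew attention to these genes, so the p-values are no independent support. Where a morning gene fell into separate clusters in a group, the libraries beyond the gap were set aside: N11 and N12 for Arntl and Npas2 in the control livers, and T22 and T24 for Arntl in the ALIOS DEN tumours. By r, 19 relations were under an adjusted p of 0.05, and 11 of them also by rho. The 3 of Npas2 among the ALIOS livers are in that count, but rest on a median of 5 counts and are not described.

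In the ALIOS DEN tumours all 7 evening genes had r below 0 with Arntl over the 6 libraries used. Tef had r = -0.946 and rho = -1 (exact permutation p = 0.00139 and 0.00278, adjusted 0.0213 and 0.0333). Dbp had r = -0.964 and rho = -0.886 (exact permutation p = 0.00556 and 0.0333, adjusted 0.0302 and 0.112), and r was -0.921 without T27 and T26, the farthest from the median. The relations of Npas2 used all 8 libraries, and 6 of 7 were below 0. They were closest for Per1 (r = -0.915, rho = -0.929), Tef (-0.898, -0.881) and Dbp (-0.889, -0.952), with an adjusted exact permutation p of 0.0213 for each r and 0.0333, 0.0468 and 0.0333 for rho, and r was -0.765, -0.784 and -0.946 for them without T24 and T22. Clock had r below 0 with 6 of 7 evening genes, from -0.790 (Tef) to -0.322 (Nr1d2), and 0.459 with Nr1d1, and no adjusted permutation p was under 0.05, for r or rho. Over the 6 libraries used for Arntl, 5 of 7 were below 0.

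In the spontaneous tumours on the ALIOS diet 5 of 7 evening genes had r below 0 with Arntl (n = 12). The closest was Tef, with r = -0.920 and rho = -0.923 (permutation p = 6e-05 and 5e-05, adjusted 0.00504 and 0.0042), and r was -0.860 without T4 and T2. Per2 followed with r = -0.732 and rho = -0.776 (adjusted permutation p = 0.0213 and 0.0423), and r was -0.797 without them. Nr1d1 ran the other way, with r = 0.604 and rho = 0.678 to Arntl (adjusted permutation p = 0.0798 and 0.073), 0.817 without T4 and T2, and r = 0.786 and rho = 0.769 to Npas2 (adjusted permutation p = 0.0213 and 0.0423). Npas2 had r = -0.848 and rho = -0.769 with Tef (adjusted permutation p = 0.0165 and 0.0423) and r = -0.707 and rho = -0.720 with Per1 (adjusted permutation p = 0.0422 and 0.0531), over a median of 17 counts, and r with Per1 was -0.427 without T4 and T13, so it rests on these. Clock had r = -0.866 with Dbp, -0.795 with Tef and -0.783 with Per2 (adjusted permutation p = 0.016, 0.0213 and 0.0213), rho was -0.818, -0.727 and -0.811 (adjusted permutation p = 0.0333, 0.0531 and 0.0333), and without T4 and T9 r was -0.935, -0.678 and -0.690. Thus Dbp, Tef and the Period genes ran opposed to the morning genes among these tumours. Nr1d1 ran with the morning genes, and Nr1d2 had r between -0.047 and 0.275 with them. Of the members tested against the ALIOS livers, edgeR called Nr1d1 alone.

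In the livers the relation was weaker, rested on N11 and N12 or, for Clock in the ALIOS livers, was mostly of the other sign. Over the 12 control livers Clock had r = -0.877 with Dbp, -0.860 with Tef and -0.825 with Per3 (adjusted permutation p = 0.0213, 0.0302 and 0.0302), but rho was -0.531, -0.406 and -0.280 (adjusted permutation p = 0.211, 0.337 and 0.524). Without N11 and N12, r was -0.286, 0.165 and 0.167, and r was below 0 for 2 of 7 evening genes rather than 6, so the relation does not hold without these libraries. Arntl, over the other 10 control livers, had r below 0 with 6 of 7, the lowest with Dbp (r = -0.659, rho = -0.770, adjusted permutation p = 0.089 and 0.0568). This count was 1 of 7 without N9, and 2 of 7 without TMM. In the ALIOS livers Arntl had r below 0 with 3 of 7 evening genes, from -0.448 (Dbp) to 0.445 (Per2), and Clock with 1 of 7, and 0 of these relations passed the adjusted permutation test by r or rho. Whether the relation differs between groups was not tested.

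**Figure D4:**
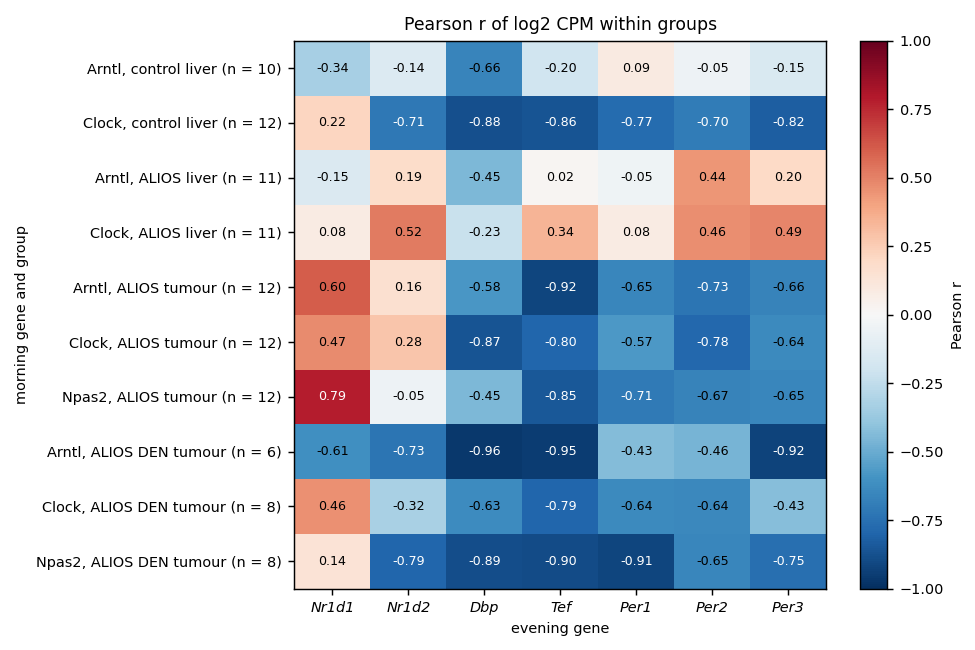
Pearson r of log2 CPM between each morning gene (rows, by group, with the number of libraries used) and each evening gene (columns); Npas2 is left out in the livers for its low counts. Tef and Dbp are strongly negative with Arntl and Npas2 in the ALIOS DEN tumours (-0.95 and -0.96 with Arntl). Nr1d1 is positive in the ALIOS tumours (0.60 with Arntl). In the ALIOS livers the Arntl row is mixed, and the Clock row is above 0 for all but Dbp, up to 0.52 with Nr1d2.

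**Figure D5:**
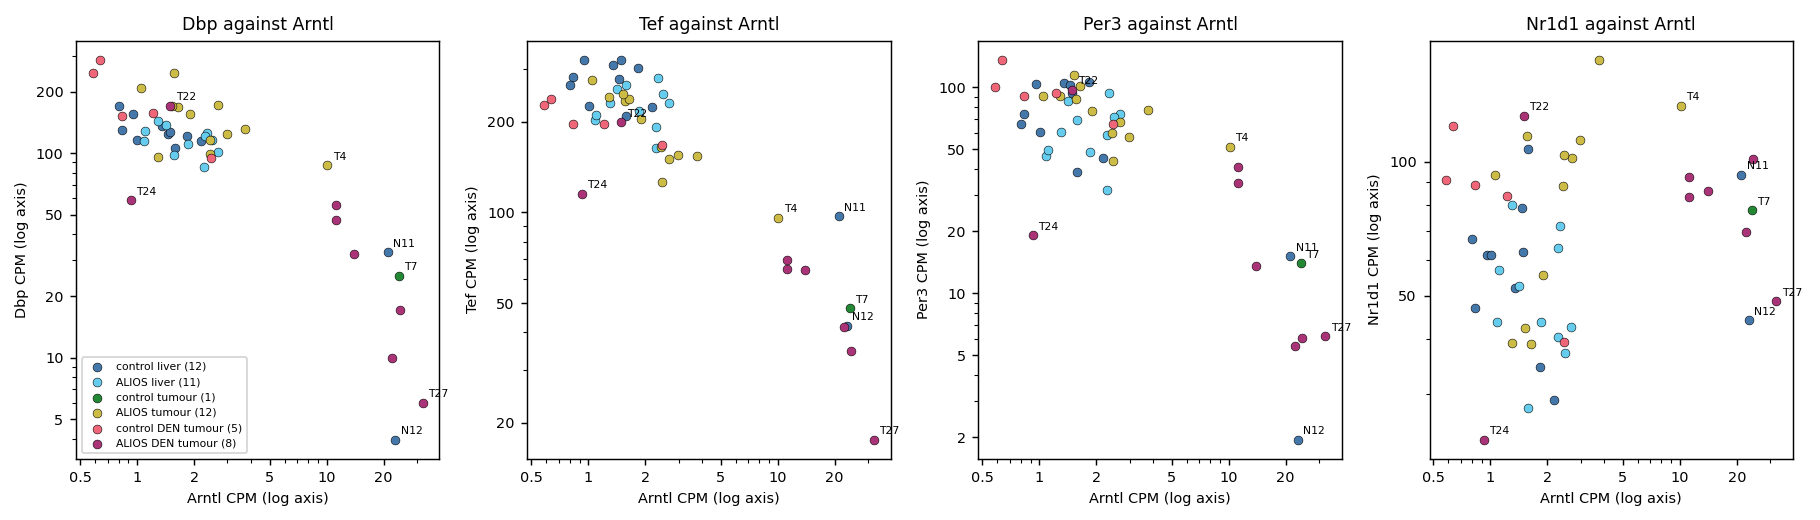
Dbp, Tef, Per3 and Nr1d1 (CPM, log axis) against Arntl (CPM, log axis) in the 49 libraries, coloured by group, with 7 libraries named. N11, N12, T7 and 6 ALIOS DEN tumours share the right lower part for Dbp, Tef and Per3, T4 (Arntl 10.1, Dbp 87.3 CPM) lies between them and the rest, and Nr1d1 shows no such fall.

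The slope of every gene on each morning gene was also fitted with edgeR in the same libraries, adjusted over all genes tested. On Clock in the ALIOS tumours 17.8% of 12539 genes were called, and the evening genes called were Dbp, Tef and Per2, each with a falling slope. On Clock in the control livers 2.16% were called, with Dbp and Tef falling, and in the ALIOS DEN tumours 2.48%, with 0 evening genes. The fit in the control livers used all 12 libraries, N11 and N12 among them, and was not repeated without these. Over the other 10 control livers, r with Clock was -0.286 for Dbp and 0.165 for Tef. On Arntl 0% were called in the control livers, 0.00798% in the ALIOS livers, 0.0239% in the ALIOS tumours and 0% in the ALIOS DEN tumours, with 0 evening genes in each. On Npas2 0% were called in the ALIOS tumours and 0.0234% in the ALIOS DEN tumours, again with 0 evening genes. A relation with Clock was therefore shared by many genes in the ALIOS tumours.

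How far libraries of a group lay apart also differed by gene. In the control livers the SD of log2 CPM was 1.67 for Per3, 1.63 for Arntl, 1.51 for Dbp and 1.25 for Per1, where the median gene had 0.244, and 0.236%, 0.260%, 0.334% and 0.716% of 12287 genes had a larger SD. Without N11 and N12 the SD was 0.470 for Arntl, 0.533 for Per3 and 0.208 for Dbp. In the ALIOS livers Dbp (0.224), Tef (0.224) and Clock (0.223) were near the median gene (0.202), and 12.5% of genes had a larger SD than Arntl (0.462). In the ALIOS DEN tumours the SD was 1.87 for Arntl, 1.80 for Npas2, 1.56 for Dbp and 1.51 for Per3, against 0.402 for the median gene, and 1.13% of 12797 genes were above Arntl. In the control DEN tumours Arntl had 0.802 and in the ALIOS tumours 0.844.

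The genes most like Arntl were sought over 48 libraries, on log2 CPM centred on the mean of each group, among 17727 genes. The libraries share the outlying values of N11, N12, T22 and T24, so r is a description. Among the 5 highest were Tars (0.857), a tRNA synthetase, Clock (0.856), Tab2 (0.837) and Insig2 (0.835), which holds back sterol synthesis. The 5 lowest were Usp2 (-0.876), Ciart (-0.876), Tef (-0.869), Dbp (-0.819) and Fam76a (-0.818). Npas2 had r = 0.802, in place 11 from the top, and Per1 (-0.787), Wee1 (-0.739) and Per3 (-0.730) were in places 6, 14 and 16 from the bottom. Per2 (-0.562) and Nr1d2 (-0.542) were in places 101 and 124, and Nr1d1 had r = 0.161.

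T24 and T22 differed from the other 6 ALIOS DEN tumours and from each other. T24 was the lowest ALIOS DEN tumour in Arntl (0.923 CPM), Clock (12.99 CPM) and Nr1d1 (23.7 CPM), and had 58.7 CPM of Dbp. Of its 5 stellate cell and fibroblast markers, the collagens Col1a1, Col1a2 and Col3a1 were the highest of the group (474, 367 and 260 CPM) and carried a sum of 1126 CPM, where the group had a median of 139, while Dcn was at 19.1 CPM, the second lowest. Of its cholangiocyte markers Krt19 alone was high, at 60.02 of a summed 60.4 CPM, and Krt7 (0.124 CPM), Epcam (0.178) and Sox9 (0.124) were the lowest or second lowest of the group. Among the macrophage markers Lyz2 (230 CPM) and Cd68 (56.9 CPM) were the highest of the group, and Clec4f was not. Its hepatocyte markers Ttr, Cps1 (3.48 CPM) and Ass1 (37.7 CPM) were the lowest of the group, and Cyp2e1 (5975 CPM) was the highest. T22 was within the range of the control DEN tumours in Arntl, Dbp, Tef, Per1, Per2, Per3 and Nr1d2. Its hepatocyte markers (198305 CPM) and its stellate cell and fibroblast markers (141 CPM) were within the range of the group without T24. T7, the single spontaneous tumour on the control diet, had Arntl, Npas2 and Clock within the range of the 6 high ALIOS DEN tumours and Usp2 at 0.840 CPM, below every control liver. With 1 library it has no replicate, and its values were not tested.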

How the data were processed

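The authors deposited raw counts per gene, in 1 table of 45792 genes and 50 libraries. They extracted RNA from tissue kept in RNAlater, prepared stranded mRNA libraries, mapped read pairs to mm10 with STAR and counted exons of Gencode M6 genes with HTSeq. Tool versions and the strand option are not given in the sources used here, and reads shared by overlapping genes were dropped or not told apart. Libraries were grouped by their labels and T1 was left out, so 49 were used. Total counts ran from 23798251 to 45751398. Reads carry no molecular identifiers, so genes with few counts have a large counting error. The paper counts as many mice as sequenced spontaneous tumours. Which liver and tumour shared a mouse, and whether any DEN tumours did, is not given, and p-values measure the spread between these libraries.

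Genes were filtered (filterByExpr), scaled (TMM) and tested with edgeR 4.0.16 and limma 3.58.1 (R 4.3.3, quasi-likelihood, group means, no covariate), with Benjamini-Hochberg adjustment over all genes tested and a call at an adjusted p under 0.05. The SE of a log2 difference is its size divided by the root of F. Log2 CPM used a prior count of 2. Permutation tests used scipy 1.17.1, numpy 2.4.6 and pandas 2.3.3 (Python 3.11.15). The alternatives were DESeq2 1.42.0, its size factors, no filter, 1 fit of all groups, a replicate block and leaving out libraries. The scripts were tested on simulated data. In those for diet in non-tumour liver, 94 of 100 genes changed by 1 on the log2 scale were called, and for diet in DEN tumours 45. Every gene was simulated with the same dispersion, so these shares need not hold for the members, whose spread differed by gene and group.

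The members and lists were chosen with earlier results of these data known. The genes named are the 10 members, a list of 26 further clock genes and outputs, 14 hormone and food genes, the 5 genes highest and the 5 lowest in r to Arntl, and genes that overlap a member. Some of these are not reported here. Cell type markers were 36 genes in 9 lists. Coordinates are from Gencode M21 on GRCm38, and promoter sequences from RefSeq on GRCm38.p6. The smallest chi-square per gene between 225 pairs of libraries of a group was 12.0, so none was a copy of another and each counted as a sample of its own. This does not show that they came from different mice.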

Additional observations from a re-analysis of the deposited data

Results flagged for a closer look

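In the ALIOS DEN tumours T22 stood apart in Dbp, with 171 CPM where the nearest of the other 7 had 58.7, a gap of 0.681 of the group's range against a limit of 0.526. It did so in Per3 too, with 97.5 CPM where the nearest had 40.8 (0.616 against 0.526). On the log2 scale no value passed the limit. Chance alone passes it in about 1 of 20 groups, and 20 pairs of a member and a group were looked at.

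The difference between the diet effects in DEN tumours and in non-tumour livers passed the threshold of edgeR's interaction test for Arntl (5.06 on the log2 scale), Npas2 (7.34), Clock (1.61), Elovl3 (6.93) and Bhlhe40 (-1.27). Elovl3 and Bhlhe40 did not pass it without N11 and N12, and the 3 members did. Npas2 had a median of 4 to 5 counts in the livers and passed the filter on low counts through the ALIOS DEN tumours, so its value depends on those few counts. The members were chosen with these counts known, so their values are a description.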

How the results depend on the processing

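In the fits of diet in non-tumour liver the count of genes called was 623 with all groups in 1 fit, against 1542, and 949 (without N17) to 2343 (without N13) on leaving out a library, with 0 members called in each. In the spontaneous tumours against ALIOS livers, 2 members rather than 1 were called with DESeq2, with its size factors, with all groups in 1 fit and with T1 included, 3 without the filter, and 1 to 3 (7056 to 7919 genes) on leaving out a library. For DEN tumours against ALIOS livers the range on leaving out a tumour was 6270 to 7610 genes and 5 (without T16) to 9 (without T22) members. For DEN tumours against control livers it was 6986 to 7637 genes and 0 (without T20) to 2 (without T21) members, with 2 members in the fit of all groups and 3 without N11 and N12. DEN against spontaneous tumours gave 75 genes and 5 members with DESeq2, 403 and 6 with all groups in 1 fit, and 0 to 15 genes and 0 to 5 members on leaving out a tumour, the most without T22. Diet in DEN tumours gave 155 genes and 4 members with DESeq2, 296 and 7 with all groups, 1 gene without the filter, and 0 to 19 genes and 0 to 1 members on leaving out a tumour, the most without T22. The interaction gave 657 genes and 5 members with DESeq2, 220 genes with all groups and 206 without N11 and N12. For diet in non-tumour liver the log2 difference of Arntl turned to 0.40 with DESeq2 and 0.44 without N11 and N12, and those of Dbp, Per1 and Per2 turned to -0.18, -0.21 and -0.15 without N11 and N12, none of them called. On leaving out a library they ran from -0.077 to 0.12 (Dbp), -0.092 to 0.11 (Per1) and -0.077 to 0.097 (Per2), and Nr1d1 for diet in DEN tumours from -0.27 to 0.068. The cause of these shifts was not tested.

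Same-numbered livers and tumours did not deviate together (r from -0.167 to 0.076, and in no case best with their own number), so the numbers were not taken as a pairing. With so few shared numbers, this does not tell whether any of them shared a mouse. With a replicate block over the 2 numbers shared by ALIOS tumours and livers, 379 genes and 0 members were called, and 1090 genes and 0 members from the same libraries without the block. The log2 differences then turned sign for Arntl (-0.55 with the block, -0.55 without), Clock (-0.43 and -0.43), Nr1d1 (-0.18 and -0.22) and Nr1d2 (-0.043 and -0.030), so the choice of libraries and not the block turned them. With a block over the 4 numbers of the ALIOS DEN tumours, 1664 genes and 2 members were called, and 3241 and 4 from the same libraries without it.

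Of 7 evening genes, r below 0 was found without TMM for 2 with Arntl in the control livers and 0 with Clock in the ALIOS livers, and for 2 with Clock in the control livers without N11 and N12. On leaving out a library it ran from 1 (without N9) to 7 for Arntl in the control livers, 2 to 4 in the ALIOS livers, 5 to 5 in the ALIOS tumours and 7 to 7 in the ALIOS DEN tumours. For Npas2 it ran from 0 to 2, 5 to 5, 5 to 6 and 6 to 7 in the same order, and for Clock from 6 to 6, 1 to 3, 5 to 5 and 6 to 7. Of the member differences refitted under an alternative, 994 kept direction and side of the threshold, 56 came past it, 21 lost it and 31 changed sign.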
